A study of Sus scrofa with 12 samples.

Results

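This section describes the nuclear genes of the mitochondrial respiratory chain in the jejunum of piglets before and after weaning. Members were the gene names in the deposited FPKM table that begin with NDUFA, NDUFB, NDUFC, NDUFS, NDUFV, UQCR, SDH, ATP5, or COX followed by a digit from 4 to 8, with loci of one name summed. The rule took 87 loci with 64 names out of 41264 loci with 17049 names. Of these, 61 had a mean of at least 0.5 FPKM (fragments mapped to a transcript, scaled by its length and by the library's size) over the 12 libraries and were tested among 12886 names. The 3 others, COX8C, COX8H and SDHAF3, averaged 0.209, 0.0617 and 0.467 FPKM. By the known function of each gene, 52 of the 61 members encode subunits, with 25 in complex I, 3 in complex II, 4 in complex III, 10 in complex IV and 10 in complex V. The remaining 9 are assembly or coupling factors that share the name stems: NDUFAF1, NDUFAF3, NDUFAF4, NDUFAF5, NDUFAF6, NDUFAF7, SDHAF1, ATP5S and the supercomplex factor COX7A2L.

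The respiratory chain passes electrons from NADH through complex I, and from succinate through complex II, to ubiquinone, then through complex III and cytochrome c to complex IV, which reduces oxygen. The proton gradient built on the way drives the ATP synthase, complex V. Absorptive enterocytes of the small intestine rely on this ATP for nutrient uptake and renewal, and oxidize glutamine and other fuels in their mitochondria. Complex II is wholly nuclear encoded, while the others also hold subunits made inside the mitochondrion, and those lie outside the naming rule.

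The libraries came from the jejunum of 12 piglets, 3 in each of 4 groups. W_Con were 21 days old on the day of weaning and PW_Con were 28 days old, a week after the sow was removed, all from sows on a corn and soybean meal diet. W_Res and PW_Res were the same ages, from sows whose diet held 300 mg/kg resveratrol, begun 20 days after breeding and kept up until the piglets were weaned. The 21-day-old groups are called sucking piglets and the 28-day-old groups weaned piglets. The submitters describe sows bred with pooled Landrace semen and cross-fostering within a diet, while the methods of the study name a different cross, and have a sucking and later a weaned male taken from every litter. The litter behind each library is not given in the labels. No unweaned piglets of 28 days are among the samples, so that age and weaning cannot be told apart.

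The table holds no read counts, so that the reads behind each value are unknown and no counting interval is given. Mapped reads per library are listed in the study's supplement for the control libraries. W_Res2 and W_Res3 stood apart from the other libraries. Their median FPKM over all loci was 1.12 and 0.836, against 0.238 to 0.479 in the others, and loci without a gene name took 8.47% and 8.02% of their FPKM, against 5.48% to 6.81%. The brush border markers that define enterocytes were detected, with 13 of 16 tested. Of 10 smooth muscle markers 8 were tested, and their summed level was 155 to 647 FPKM in W_Con, 421 to 571 in PW_Con, 671 to 3984 in W_Res and 207 to 646 in PW_Res. The highest sums were 1828 in W_Res1 and 3984 in W_Res2. Of 10 striated muscle markers 4 had a row under their name, and none of those passed the filter, with means up to 0.463 FPKM. In bulk tissue, fewer cells of a type and less RNA per cell cannot be told apart.

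**Figure D1:**
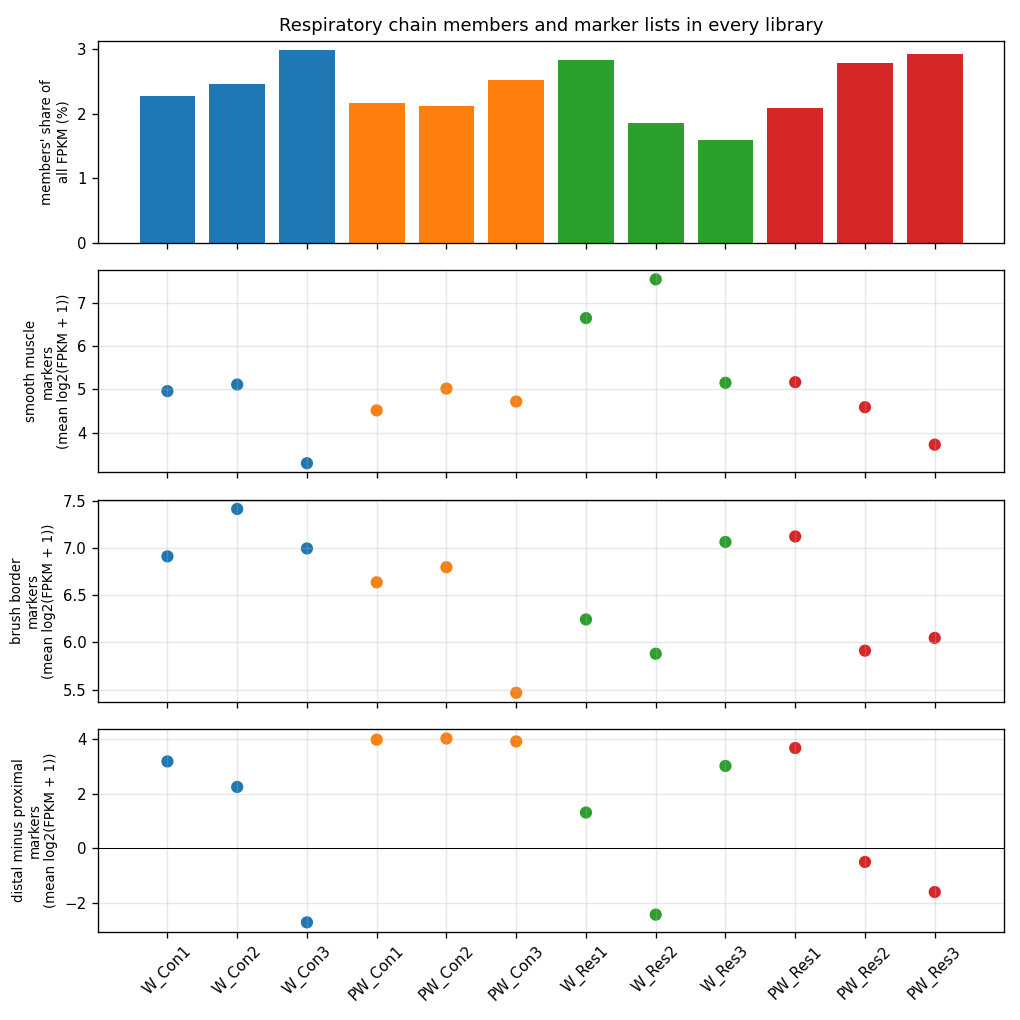
Bars give the summed share of all FPKM taken by the 61 members in each library, in percent, and points give the mean log2(FPKM + 1) of smooth muscle and of brush border markers and the difference between distal and proximal small intestine markers. The members' share runs from 1.60% in W_Res3 to 2.99% in W_Con3, and the smooth muscle points are highest in W_Res1 and W_Res2.

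The members were abundant. Together they took 1.60% to 2.99% of all FPKM, with means of 2.58% ± 0.367 in W_Con, 2.27% ± 0.226 in PW_Con, 2.10% ± 0.656 in W_Res and 2.60% ± 0.453 in PW_Res (SD, n = 3). FPKM is per length, which allows genes to be compared: 11 members averaged at least 200 FPKM, 30 lay between 50 and 200, 11 between 10 and 50, and 9 under 10. The most abundant member of each complex was NDUFA13 for complex I at 224 FPKM, SDHB for complex II at 207, UQCRC1 for complex III at 303, COX5B for complex IV at 484 and ATP5B, the catalytic beta subunit of the ATP synthase, for complex V at 819.9. Between pairs of groups, those genes had an unadjusted P under 0.05 only for UQCRC1 with weaning in resveratrol litters and for SDHB between diets at 28 days. Among the 9 members under 10 FPKM were 6 of the 9 factors, but also the subunits ATP5H, NDUFB2 and COX6A2. ATP5H, in the peripheral stalk of the ATP synthase, averaged 6.51 FPKM, and ATP5B was 69.3 to 223 times as high in the same library.

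Levels by complex varied more within some groups than between groups. The median complex I subunit stood at 76.1, 84.2 and 106.9 FPKM in W_Con, 75.3, 68.4 and 92.3 in PW_Con, 98.2, 64.1 and 50.4 in W_Res and 73.7, 99.9 and 93.5 in PW_Res. For complex V the median subunit stood at 150.4, 173 and 211 FPKM in W_Con, 141, 148 and 199 in PW_Con, 203, 130.4 and 94.2 in W_Res and 138, 187 and 214 in PW_Res. In both complexes W_Res1 lay with the highest libraries and W_Res3 was the lowest of all 12. The median of the 3 complex II subunits was the value of SDHD in all 12 libraries, and stood at 153, 211 and 192 FPKM in PW_Res, at 173, 119.8 and 131 in W_Res and at 83.96 to 143.1 in the 6 control libraries. Counted over the members, W_Res3 had the lowest value of the 12 libraries for 28 of 61 and W_Res2 for 7, while W_Con3 had the highest for 20 and PW_Res3 for 10. W_Res1, of the same group, lay above the member's own median for 53 of 61 members, and W_Res2 lay below it for 53. The mean log2(FPKM + 1) of the 9 crypt and cell division markers tested is set here beside the members' share of all FPKM. It was 5.17, 4.37 and 3.65 in W_Res (2.84%, 1.86% and 1.60%) and 4.45, 4.65 and 5.21 in PW_Con (2.16%, 2.12% and 2.53%). In PW_Res it was 4.10, 4.95 and 4.76 (2.09%, 2.80% and 2.93%), and in W_Con 4.94, 4.62 and 4.51 (2.28%, 2.47% and 2.99%). A link between them was not tested.

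**Figure D2:**
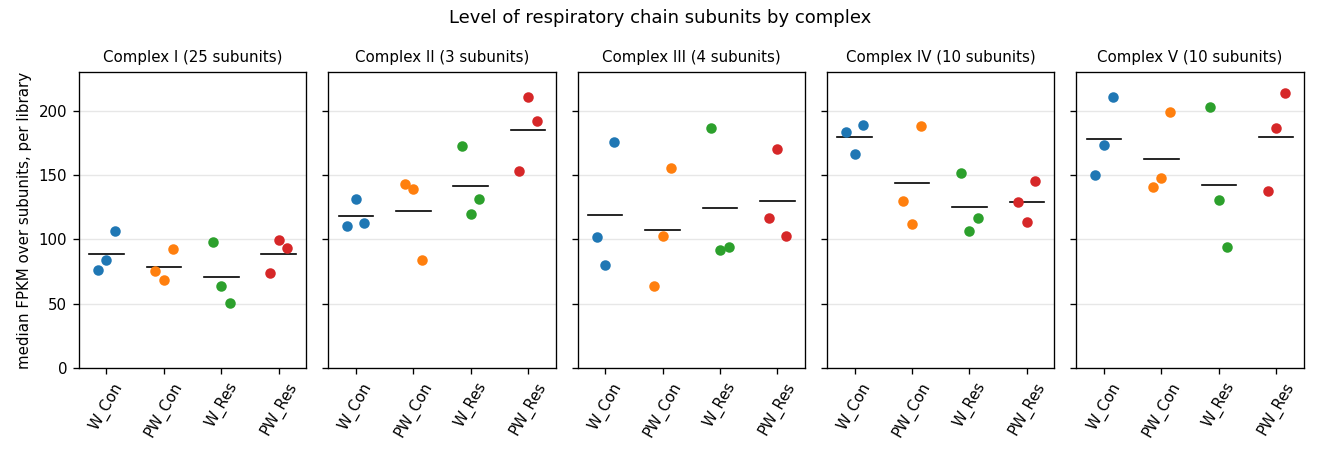
Each point is the median FPKM over the subunits of a complex in one library, by group, and the line is the group mean of the 3 points. The W_Res points of complexes I and V spread from 50.4 to 98.2 and from 94.2 to 203 FPKM, a wider span than that of the other 3 groups together.

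A few members had levels far apart between libraries in ways that did not follow the groups. NDUFB7, an accessory subunit of complex I, was listed at 0.0825 FPKM in W_Con1 and at 35.0 to 121 in the other 11 libraries. UQCRFS1, the Rieske iron-sulfur protein of complex III, stood at 4.38 FPKM in PW_Con3 and 3.75 in PW_Res1, against 20.4 to 42.7 elsewhere. NDUFB11 lay near 20 FPKM in all 3 W_Con libraries (19.3, 22.0 and 26.5), in PW_Con1 (21.8), PW_Con2 (22.2) and W_Res2 (21.9), and at 55.1 to 101 in the other 6, with none between. SDHAF1, an assembly factor of complex II, reached 12.8 FPKM in W_Res1, of which 12.3 came from a locus listed at 0 in all the other libraries, and did not exceed 1.11 elsewhere. Changes given for these 4 names rest on such libraries. In all, 17 members had a highest value at least 3 times the lowest.

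Weaning in control litters compared PW_Con with W_Con. NDUFA1, SDHC, COX7A2 and ATP5O were lower after weaning and NDUFAF3, NDUFS7 and NDUFB7 were higher, each at an unadjusted P under 0.05 in limma on log2(FPKM + 1). All fold changes below are on that scale, which understates the change of low genes, and each adjusted p is over all 12886 names; where a gene is called higher or lower, this rests on its unadjusted P under 0.05. The 4 lower calls were 6.56% of the members, against 7.21% of all names tested, and the 3 higher calls 4.92% against 8.11%. By the study's standard, P under 0.05 and a log2 fold change beyond 1, only NDUFB7 was called (1.64%, all names 3.1%). No member and no other name (0%) had an adjusted p under 0.05, where 1974 names had an unadjusted P under 0.05; the smallest adjusted p of a member in limma was 0.103, for NDUFAF3. Beside the calls, 43 of 61 members had a negative and 18 a positive log2 fold change, with a median of -0.17 against -0.01 over all names. All 3 weaned libraries lay below all 3 sucking libraries for 15 members (24.6%, all names 12.4%), and above them for 4 (6.56%, all names 12.5%). Among the 15 were NDUFA1, NDUFA8, NDUFB3, NDUFB5, NDUFS1, SDHC, UQCRFS1, COX7A2, COX7A2L, ATP5A1, ATP5B, ATP5F1, ATP5O and ATP5S.

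NDUFA1, a small accessory subunit of complex I, stood at 108, 139.6 and 178 FPKM in W_Con and at 69.8, 71.9 and 95.1 in PW_Con. The groups did not overlap, and the log2 fold change was -0.82 ± 0.25 (SE; adjusted p = 0.164 in limma). NDUFA1 is also among the changed genes of the study's supplement, chosen on the same 6 libraries, so that its direction here is not independent evidence. SDHC, which anchors succinate dehydrogenase in the inner membrane, stood at 48.8, 80.1 and 81.8 FPKM in W_Con and at 43.9, 25.6 and 35.5 in PW_Con. Its groups came close, 48.8 against 43.9, and the log2 fold change was -0.98 ± 0.31 (adjusted p = 0.177). COX7A2, the non-muscle form of subunit 7a of cytochrome c oxidase, went from 266, 283 and 336 FPKM to 176, 159 and 238, with a log2 fold change of -0.64 ± 0.24 (adjusted p = 0.253). ATP5O, which links the catalytic head of the ATP synthase to its stalk, went from 381, 446 and 480.1 FPKM to 298, 304 and 342 (log2 fold change -0.47 ± 0.21, adjusted p = 0.318).

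The 4 members that went the other way in libraries that did not overlap were complex I genes, NDUFAF3, NDUFS7, NDUFB7 and NDUFAB1. NDUFAB1, not called, stood at 72.3, 77.5 and 90.5 FPKM in W_Con and at 128, 100 and 125 in PW_Con. Its log2 fold change was 0.55 ± 0.34 (adjusted p = 0.496 in limma). NDUFAF3, an assembly factor for an early intermediate of complex I, stood at 8.88, 9.70 and 8.57 FPKM in W_Con and at 13.2, 15.1 and 17.6 in PW_Con, a log2 fold change of 0.69 ± 0.17 (adjusted p = 0.103). NDUFS7, a core subunit that carries the last iron-sulfur cluster before ubiquinone, went from 16.9, 22.0 and 22.2 FPKM to 27.0, 31.5 and 36.8, with a log2 fold change of 0.62 ± 0.22 (adjusted p = 0.216). For NDUFB7 the log2 fold change of 2.74 ± 1.15 (adjusted p = 0.291) came from W_Con1, and without that library it was 0.84, still at P under 0.05, while without any one PW_Con library it was 2.60 to 2.83 and the call was lost.

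By complex, 15 of 25 complex I subunits, 2 of 3 of complex II, 2 of 4 of complex III, 9 of 10 of complex IV and 8 of 10 of complex V had a negative log2 fold change, with median log2 fold changes of -0.12, -0.48, -0.12, -0.15 and -0.33. The values of single subunits below did not pass at an unadjusted P under 0.05. ATP5A1, the alpha subunit of the catalytic head, stood at 684, 806 and 909.8 FPKM in W_Con and at 549, 514 and 558 in PW_Con, without overlap (log2 fold change -0.56 ± 0.32, adjusted p = 0.456). SDHB, the iron-sulfur subunit of complex II, stood at 184, 218 and 292 against 152, 185 and 154 FPKM (log2 fold change -0.48 ± 0.22, adjusted p = 0.346). UQCRFS1 had the lowest log2 fold change, -1.34 ± 0.72 (adjusted p = 0.415), and PW_Con3 was its outlying library. UQCR10, an accessory subunit of complex III, varied from 64.5 to 286 FPKM within the 6 libraries (log2 fold change -0.25, adjusted p = 0.89), and ATP5S, a coupling factor, had a log2 fold change of -0.37 (adjusted p = 0.357).

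The lower calls numbered 8 without W_Con1, 2 without W_Con3 and 2 without PW_Con2, and the higher calls 1 without PW_Con3; ATP5O lost its call without any one of 5 of the 6 libraries, COX7A2 without W_Con3, PW_Con1 or PW_Con2, and NDUFS7 without W_Con1 or PW_Con3. With 1 library left out, 1446 to 1748 of all names were at P under 0.05, against 1974 with all libraries. Fitting only W_Con and PW_Con gave 9 lower and 3 higher members, with 2247 of all names at P under 0.05. With the replicate number as a block 12 members were lower and 5 higher, with 2015 of all names. Of the brush border markers 11 of 13 were negative, with a median log2 fold change of -0.75 and a summed level of 5953 to 10529 FPKM in W_Con against 3395 to 7812 in PW_Con, and of the proximal small intestine markers 6 of 6 (183, 437 and 2872 against 47.8 to 92.7 FPKM), while distal markers were positive in 7 of 7, with a median of 0.95. W_Con3, which held the highest value of the 12 libraries for 20 members, also had the highest proximal sum, 2872 FPKM, and the lowest distal and smooth muscle sums, 206 and 155 FPKM. The part of these markers in the members' values was not tested beyond 2 scores as covariates. With the distal minus proximal score 6 of the 7 calls kept P under 0.05, 6 members were higher and 3 lower, and 1942 of all names were at P under 0.05. The members' median was -0.08 against -0.03 over all names. With the smooth muscle score 6 of the 7 calls were kept, 3 members were higher and 3 lower, and 2015 of all names were at P under 0.05. The members' median was -0.16 against -0.04 over all names.

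**Figure D3:**
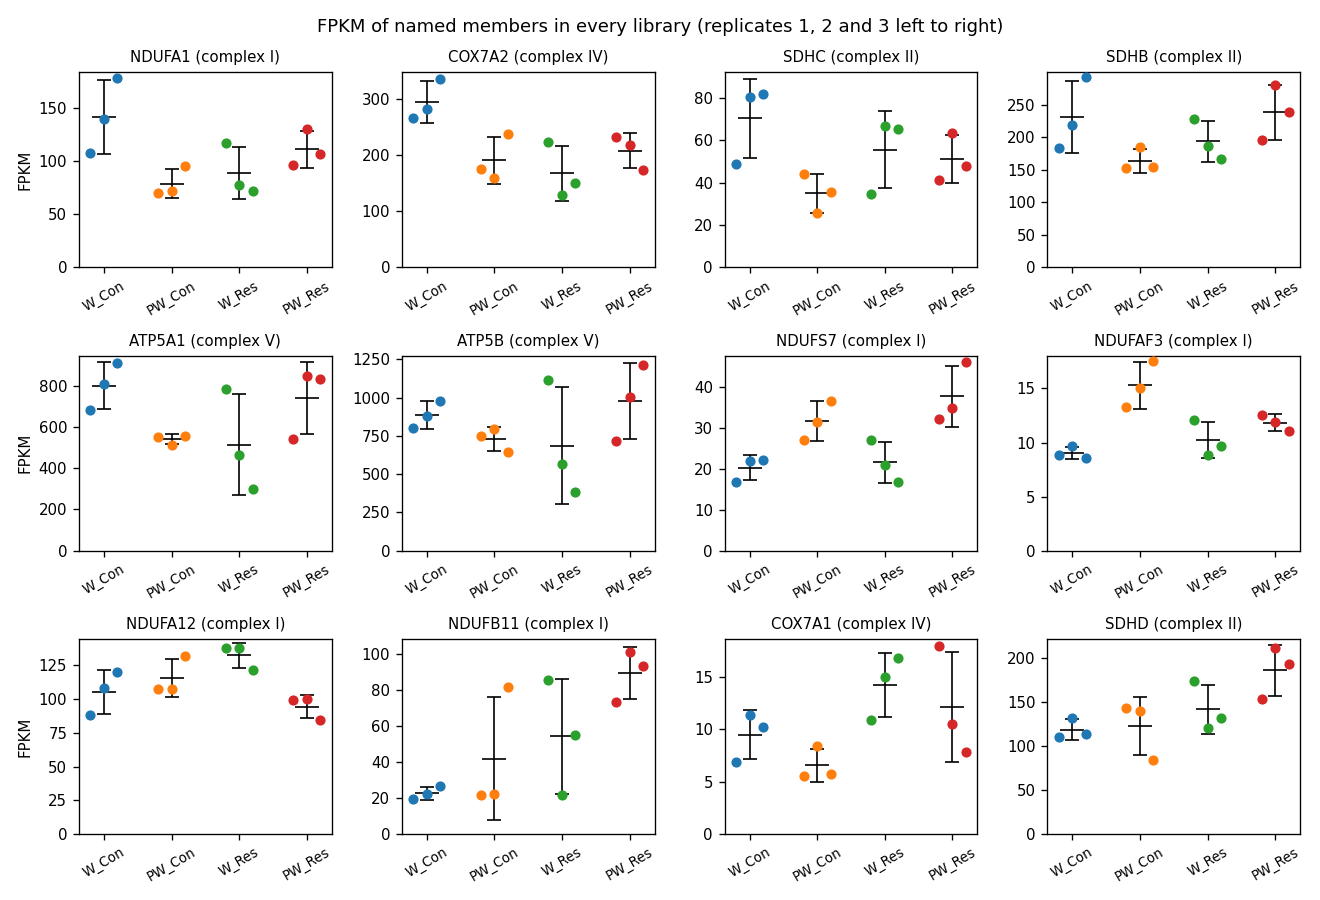
FPKM of 12 named members in every library, with replicates 1 to 3 from left to right in each group and the group mean ± SD (n = 3) in black. NDUFA1, COX7A2 and SDHC lie lower in PW_Con than in W_Con, NDUFS7 lies higher in both weaned groups, and W_Res spreads widely for ATP5A1 and ATP5B.

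Weaning in resveratrol litters compared PW_Res with W_Res, with the spread estimated over all 4 groups. NDUFS7, NDUFAF4, NDUFAB1, UQCRC1, NDUFA11 and ATP5G1 were higher after weaning and NDUFA12 was lower at an unadjusted P under 0.05. The 6 higher calls were 9.84% of the members, against 3.4% of all names, and the 1 lower call 1.64% against 14.2%. None met the study's standard (0%, all names 4.94%), and no name (0%) had an adjusted p under 0.05, while 2274 had an unadjusted P under 0.05; the smallest of a member was 0.151 in limma, for NDUFS7. Positive log2 fold changes were found for 43 members and negative ones for 18, with a median of 0.27 against -0.15 over all names. Among the 6302 names with a mean of at least 5 FPKM, 56 of them members, the medians were 0.27 in members and -0.03 over all. Groups that did not overlap were few, with 2 members higher (3.28%, all names 3.98%) and 2 lower (3.28%, all names 17.7%).

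NDUFS7 stood at 27.0, 21.1 and 16.8 FPKM in W_Res and at 32.1, 35.0 and 46.3 in PW_Res, again without overlap (log2 fold change 0.79 ± 0.22, adjusted p = 0.151). NDUFA12, an accessory subunit of complex I, was the reverse, with 138, 138 and 121 FPKM before and 99.1, 99.9 and 84.4 after weaning (log2 fold change -0.48 ± 0.18, adjusted p = 0.211). For the other calls named here W_Res1 lay within the range of the weaned libraries or near it. NDUFAF4, an assembly factor, stood at 5.35, 2.54 and 2.66 FPKM in W_Res and at 4.91, 8.46 and 7.58 in PW_Res (log2 fold change 0.85 ± 0.27, adjusted p = 0.167). UQCRC1, a core protein of complex III, stood at 365, 250.3 and 175 FPKM against 334, 409 and 433 (log2 fold change 0.63 ± 0.26, adjusted p = 0.246). ATP5G1, which encodes the c subunit of the rotor ring, stood at 204, 134 and 64.6 FPKM against 167, 274 and 264 (log2 fold change 0.92 ± 0.39, adjusted p = 0.257). NDUFAB1, the mitochondrial acyl carrier protein, and NDUFA11 were chosen here after their values were seen, with log2 fold changes of 0.87 (adjusted p = 0.233) and 0.75 (adjusted p = 0.251).

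Complex V had 9 of 10 subunits with a positive log2 fold change, with a median of 0.43, and complex I 20 of 25, with a median of 0.24. In complexes II, III and IV the counts were 2 of 3, 2 of 4 and 5 of 10, with medians of 0.29, 0.19 and 0.09. ATP5A1 stood at 782, 462 and 298 FPKM before weaning and at 539, 847 and 832 after it, and did not pass (log2 fold change 0.61 ± 0.32, adjusted p = 0.349). COX5B (0.50, adjusted p = 0.41), COX6C (-0.38, adjusted p = 0.475), SDHD (0.39, adjusted p = 0.418), UQCRQ (0.39, adjusted p = 0.513) and SDHAF1 (-1.23, adjusted p = 0.371) were the members with the smallest P of their complexes that did not pass.

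These counts moved with single libraries. The higher and lower calls were 23 and 1 without W_Res1, 14 and 1 without PW_Res1, 3 and 1 without W_Res2, 3 and 2 without W_Res3, 2 and 1 without PW_Res2, and 2 and 0 without PW_Res3. Over all names, 2872, 2296, 1367, 2376, 1581 and 1506 were at P under 0.05 under these settings in the same order, against 2274 with all libraries. NDUFS7 and NDUFAF4 kept P under 0.05 without any one library, NDUFA12 lost it without W_Res2 or PW_Res3, NDUFA11 without W_Res3, PW_Res2 or PW_Res3, and UQCRC1, ATP5G1 and NDUFAB1 without any one of W_Res2, W_Res3, PW_Res2 and PW_Res3. Fitting only the 6 libraries of this comparison gave 4 higher and 1 lower, with 1725 of all names at P under 0.05. ATP5G1, NDUFA11, NDUFAB1 and UQCRC1 were no longer at P under 0.05. Without both W_Res2 and W_Res3, W_Res1 alone stood for its group and was taken to vary like the other groups. The members' median was then -0.12 against -0.19 over all names. None of the 7 calls kept P under 0.05, with log2 fold changes of -0.54 for NDUFA12, 0.46 for NDUFS7, 0.30 for NDUFAF4, 0.30 for NDUFA11, 0.17 for ATP5G1, 0.09 for UQCRC1 and -0.09 for NDUFAB1. Rescaling libraries by the median of ratios shifted the median of all names from -0.154 to -0.003 and that of the members from 0.267 to 0.435. It gave 16 higher and 0 lower calls, with 2107 of all names at P under 0.05. Quantile normalization gave 8 and 2, with 1693, and medians of 0.17 in the members and 0.01 over all names. Of the 8 smooth muscle markers 7 were lower at P under 0.05, with a median log2 fold change of -2.03; all 4 enteric neuron and glia markers tested were lower as well, with a median of -0.95. With the smooth muscle score as a covariate 1 of the 7 member calls, NDUFS7, kept P under 0.05, while the log2 fold changes were 0.77 for NDUFS7, 1.06 for ATP5G1, 0.79 for NDUFA11, 0.66 for UQCRC1, -0.46 for NDUFA12, 0.73 for NDUFAF4 and 0.63 for NDUFAB1. All names at P under 0.05 numbered 805 with that covariate.

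The difference between litters asked whether the change with weaning differed with the sow's diet. NDUFA1, COX7A2, NDUFAF5, ATP5A1, SDHB, NDUFAF4 and ATP5L were among 8 members with a more positive change in resveratrol than in control litters, and NDUFA12 had a more negative one, at an unadjusted P under 0.05 of the interaction. The 8 were 13.1% of the members, against 3.31% of all names, and the 1 lower 1.64% against 10.4%. NDUFA1, NDUFAF5 and ATP5A1 also met the study's standard (4.92%, all names 7.76%), but no name (0%) reached an adjusted p under 0.05, where 1770 names had an unadjusted P under 0.05, and the smallest of a member was 0.251 in limma. The median difference was 0.39 in the members and -0.15 over all names. Among names with a mean of at least 5 FPKM it was 0.40 in the members and -0.05 over all. Of the 61 members, 28 (45.9%) had a negative change in control and a positive one in resveratrol litters, as had 16% of all names, and 3 (4.92%) the reverse, as had 29.6%. A further 15 (24.6%, all names 35.6%) were negative in both and 15 (24.6%, all names 18.7%) positive in both. By complex, the difference was positive for 21 of 25, 3 of 3, 4 of 4, 7 of 10 and 9 of 10 subunits of complexes I to V, with medians of 0.32, 0.77, 0.46, 0.24 and 0.72.

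**Figure D4:**
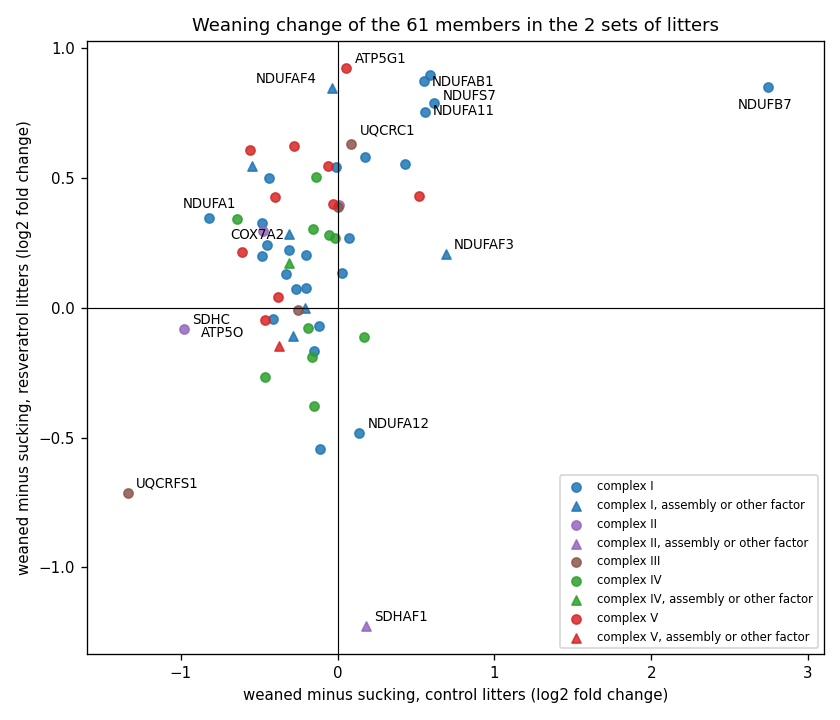
Each point is a member, with its log2 fold change on weaning in control litters on the x axis and in resveratrol litters on the y axis, coloured by complex, circles for subunits and triangles for factors. The upper left quadrant, lower after weaning in control and higher in resveratrol litters, holds 28 of the 61 members.

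In NDUFA1 the difference was 1.16 ± 0.35 (adjusted p = 0.251), from values of 117, 77.7 and 71.4 FPKM in W_Res and 96.3, 130.0 and 107 in PW_Res set beside the control values above. For COX7A2 it was 0.98 ± 0.34 (adjusted p = 0.277), with 223, 129 and 150.3 FPKM in W_Res and 233, 218 and 174 in PW_Res. The sucking and weaned libraries of both genes overlapped in resveratrol litters and not in control litters. NDUFAF5, an enzyme that modifies NDUFS7 during assembly, had a difference of 1.09 ± 0.39 (adjusted p = 0.283), with 7.42, 10.6 and 10.7 FPKM in W_Con, 6.90, 3.64 and 9.11 in PW_Con, 5.87, 5.46 and 4.88 in W_Res and 6.43, 9.92 and 8.98 in PW_Res. The difference was 1.16 ± 0.45 (adjusted p = 0.307) for ATP5A1 and 0.77 ± 0.32 (adjusted p = 0.327) for SDHB. NDUFS7, the one member called in both sets of litters, had a difference of 0.17 ± 0.31 (adjusted p = 0.837).

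Without W_Res1 the interaction gave 23 higher and 1 lower calls. The counts were 3 and 1 without W_Con3, 3 and 1 without PW_Res2, 3 and 0 without PW_Res3, 4 and 1 without PW_Con2, and 5 higher without each of PW_Con1, W_Con2, W_Res2 and W_Res3, with 1 or 2 lower. All names at P under 0.05 numbered 2257 without W_Res1, 1137 without W_Con3 and 1770 with all libraries. NDUFA1, COX7A2 and NDUFAF5 kept P under 0.05 without any one library, while ATP5A1 lost it without W_Con3, W_Res3, PW_Con2, PW_Res2 or PW_Res3 and SDHB without any one of 7 libraries. Without both W_Res2 and W_Res3, W_Res1 was the one library of its group and the spread was taken from the other groups. The median difference was then -0.0019 in the members and -0.18 over all names. Differences were 0.74 for NDUFA1, 0.53 for COX7A2, 0.98 for NDUFAF5, 0.44 for ATP5A1 and -0.68 for NDUFA12. With the smooth muscle score as a covariate none of the 9 calls was kept at P under 0.05, with values of 1.02 for NDUFA1, 0.91 for COX7A2, 0.89 for NDUFAF5, 1.24 for ATP5A1 and -0.59 for NDUFA12. With the distal minus proximal score 4 of the 9 were kept. All names at P under 0.05 numbered 697 and 1643 with these covariates. Rescaling by the median of ratios gave 13 higher and 0 lower calls, with 1738 of all names at P under 0.05. It moved the median of all names from -0.154 to -0.014 and that of the members from 0.385 to 0.567. Quantile normalization gave medians of 0.38 in the members and 0.007 over all names. Smooth muscle markers had a median difference of -2.43, enteric neuron and glia markers of -1.11, proximal small intestine markers of 1.51 and brush border markers of 1.01.

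**Figure D5:**
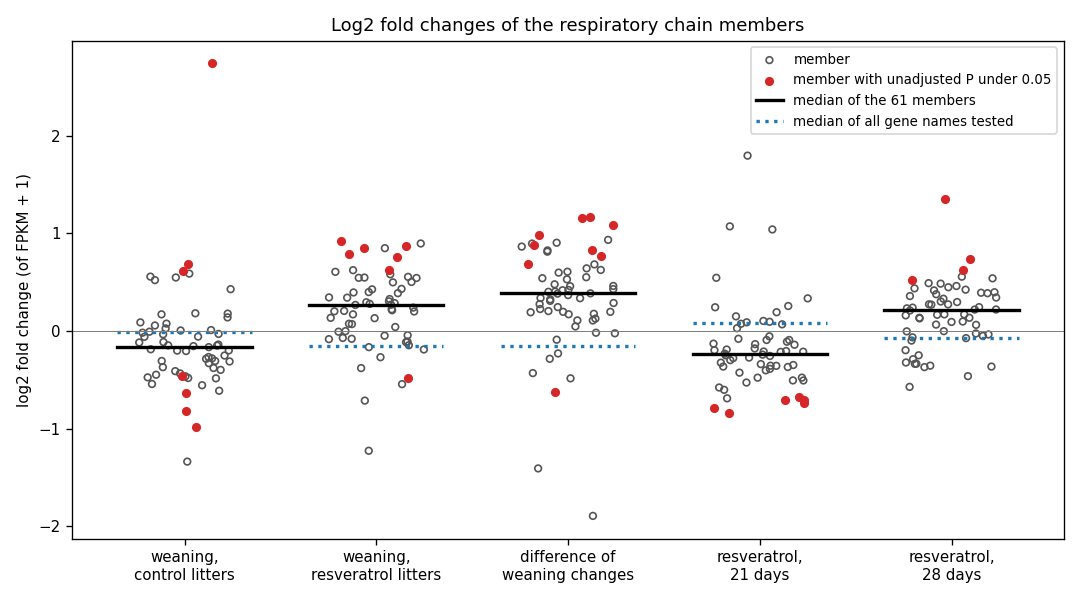
Log2 fold changes of the 61 members in 5 comparisons, filled red at an unadjusted P under 0.05, with the members' median as a black line and the median of all 12886 names as a dotted blue line. The black line lies below the dotted line for weaning in control litters and for resveratrol at 21 days, and above it in the other 3.

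Averaged over both sets of litters, weaning gave 6 members higher (9.84%, all names 6.57%) and 1 lower (1.64%, all names 12.5%). NDUFS7 had the smallest P of all members in any comparison, with a log2 fold change of 0.70 ± 0.16 (adjusted p = 0.0727 in limma), and every weaned library lay above every sucking library, the closest being PW_Con1 at 27.003 and W_Res1 at 26.98 FPKM. NDUFAF3 (0.45, adjusted p = 0.115), NDUFA11 (0.65), NDUFAB1 (0.71), ATP5D (0.48) and NDUFB7 (1.79) were the other higher calls and SDHC (-0.53) the lower one. Only NDUFB7 met the study's standard (1.64%, all names 1.42%), and no member was among the 10 names (0.0776%) with an adjusted p under 0.05. The members' median was -0.01 against -0.10 over all names. NDUFS7 and NDUFAF3 kept their calls under all 25 alternatives, NDUFA11 lost its call in 2, NDUFAB1 in 3, SDHC in 11, ATP5D in 12 and NDUFB7 in 18, and NDUFB7 stood at 0.85 without W_Con1. The higher calls numbered 14 without W_Res1, where 2814 of all names were at P under 0.05 against 2454 with all libraries. The split was 10 to 0 with median-of-ratios rescaling and 6 to 2 with quantile normalization, with 2277 and 2054 of all names at P under 0.05. Smooth muscle markers were negative in 8 of 8 (median -0.90), proximal small intestine markers in 6 of 6 (-0.81), brush border markers in 11 of 13 (-0.37) and enteric neuron and glia markers in 4 of 4 (-0.41). Distal small intestine markers were positive in 6 of 7 (0.998). With the smooth muscle score as a covariate 4 of the 7 calls were kept, with 2005 of all names at P under 0.05. Without both W_Res2 and W_Res3, which leaves W_Res1 alone in its group, the members' median was -0.20 against -0.11 over all names.

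Maternal resveratrol at 21 days compared W_Res with W_Con, 2 groups of sucking piglets. COX7A2, NDUFB3, ATP5H, NDUFA1, NDUFAF5 and ATP5A1 were lower at an unadjusted P under 0.05 in piglets of resveratrol-fed sows, and no member was higher. The 6 lower calls were 9.84% of the members, against 5.45% of all names, and the 0 higher calls stood against 13%. None met the study's standard (0%, all names 4.77%) or was among the 6 names (0.0466%) with an adjusted p under 0.05; the smallest of a member was 0.131 in limma. Negative log2 fold changes were found for 46 of 61, with a median of -0.23 against 0.08 over all names, and in complex V for 9 of 10 with a median of -0.49. Among names with a mean of at least 5 FPKM the medians were -0.25 in the members and 0.04 over all. All W_Res libraries lay below all W_Con libraries for 6 members (9.84%, all names 7.26%) and above them for 1, NDUFA12 (1.64%, all names 13.8%).

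COX7A2 differed most by P, with 266, 283 and 336 FPKM in W_Con and 223, 129 and 150.3 in W_Res (log2 fold change -0.85 ± 0.24, adjusted p = 0.131). NDUFB3, an accessory subunit of the membrane arm of complex I, stood at 84.0, 91.9 and 81.9 FPKM against 68.4, 41.6 and 49.6 (log2 fold change -0.71 ± 0.23, adjusted p = 0.149). ATP5H was low in both groups, at 7.87, 7.00 and 8.83 FPKM against 4.99, 3.82 and 3.74 (log2 fold change -0.78 ± 0.26, adjusted p = 0.165). These 3 did not overlap between the groups. In NDUFA1 and ATP5A1, with log2 fold changes of -0.67 (adjusted p = 0.189) and -0.74 (adjusted p = 0.248), W_Res1 lay within the range of W_Con.

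Leaving out W_Res1 raised the lower calls to 21, and they fell to 3 without W_Res3 or W_Con3 and to 4 without W_Res2 or W_Con2, with up to 2 higher calls. Over all names, 2838 were at P under 0.05 without W_Res1, 1579 without W_Con3 and 2383 with all libraries. COX7A2, NDUFB3 and ATP5H kept P under 0.05 without any one library, NDUFA1 lost it without W_Con3, W_Res2 or W_Res3, NDUFAF5 without W_Con2, W_Con3 or W_Res3, and ATP5A1 without W_Con2, W_Con3, W_Res2 or W_Res3. Without both W_Res2 and W_Res3, which again leaves W_Res1 alone in its group, the members' median was 0.20 against 0.12 over all names. None of the 6 calls kept P under 0.05, with log2 fold changes of -0.61 for NDUFAF5, -0.57 for ATP5H, -0.40 for COX7A2, -0.32 for NDUFB3, -0.25 for NDUFA1 and -0.02 for ATP5A1. In this comparison 7 of 8 smooth muscle markers were higher at P under 0.05, with a median log2 fold change of 1.99, and 12 of 13 brush border markers were negative, with a median of -0.76. Of 12 lymphocyte and plasma cell markers 5 were lower and 1 higher (median -0.61), and of 4 enteric neuron and glia markers 2 were higher (median 0.55). With the smooth muscle score as a covariate none of the 6 calls was kept at P under 0.05, with log2 fold changes of -0.78 for COX7A2, -0.54 for NDUFB3, -0.45 for ATP5H, -0.55 for NDUFA1, -0.53 for NDUFAF5 and -0.80 for ATP5A1. Quantile normalization gave 8 lower and 1 higher, with 2475 of all names at P under 0.05. It moved the median of all names from 0.08 to -0.01 and that of the members from -0.23 to -0.25. W_Con also enters the weaning comparison in control litters, so that its values are shared by both.

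Maternal resveratrol at 28 days compared PW_Res with PW_Con. SDHD, NDUFB11, COX7A1 and SDHB were higher at an unadjusted P under 0.05 and no member was lower, which is 6.56% against 2.51% of all names and 0% against 5.25%. NDUFB11 alone met the study's standard (1.64%, all names 1.55%), and no name (0%) had an adjusted p under 0.05, where 1000 had an unadjusted P under 0.05; the smallest of a member was 0.586 in limma. The median was 0.21 against -0.07 over all names, and 0.22 against -0.01 among names with a mean of at least 5 FPKM. All PW_Res libraries lay above all PW_Con libraries for 8 members (13.1%, all names 5.4%) and below them for 3 (4.92%, all names 11.8%). Among the 8 were NDUFA1, NDUFA8, NDUFB5, SDHB, SDHD, UQCRC1 and COX7A2L.

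All 3 subunits of complex II measured under the rule had a positive log2 fold change. SDHD, the second membrane anchor, stood at 143, 139 and 84.0 FPKM in PW_Con and at 153, 211 and 192 in PW_Res (log2 fold change 0.63 ± 0.24, adjusted p = 0.586). SDHB stood at 152, 185 and 154 FPKM against 196, 281 and 238 (log2 fold change 0.53 ± 0.22, adjusted p = 0.621). SDHC, at 43.9, 25.6 and 35.5 against 41.4, 63.5 and 48.1 FPKM, overlapped and did not pass (log2 fold change 0.54 ± 0.31, adjusted p = 0.709). SDHA, the flavoprotein of complex II, had no row under that name and is not analysed here. NDUFB11, at 21.8, 22.2 and 81.5 FPKM against 73.3, 101 and 93.5, had a log2 fold change of 1.35 ± 0.52 (adjusted p = 0.592), and 1.96 without PW_Con3; it lost P under 0.05 without PW_Con1, PW_Con2, PW_Res2 or PW_Res3. COX7A1, the muscle form of subunit 7a, stood at 5.56, 8.37 and 5.78 FPKM against 18.0, 10.6 and 7.82, with overlap (log2 fold change 0.74 ± 0.30, adjusted p = 0.598).

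The higher calls numbered 1 without PW_Con1, PW_Res2 or PW_Res3, and the lower calls 3 without PW_Con2. SDHD lost P under 0.05 without PW_Con3, PW_Res2 or PW_Res3, SDHB without those or PW_Con1, and COX7A1 without PW_Con1, PW_Con3 or PW_Res1. All names at P under 0.05 numbered 722 to 1091 with 1 library left out and 1000 with all. The members' calls were 3 higher and 3 lower with quantile normalization, 3 and 1 with libraries scaled to the same FPKM total, and 7 and 0 with median-of-ratios rescaling. In the same order, 892, 1061 and 1020 of all names were at P under 0.05. The medians over all names were -0.005, -0.098 and 0.003, and those of the members 0.143, 0.169 and 0.305. Proximal small intestine markers summed to 361 to 1051 FPKM in PW_Res and 47.8 to 92.7 in PW_Con, with 6 of 6 positive, and distal markers to 25393 in PW_Res1, 404 in PW_Res2 and 341 in PW_Res3 against 7104 to 10516 in PW_Con. Lymphocyte and plasma cell markers were negative in 12 of 12 (median -0.59), enteric neuron and glia markers in 4 of 4 (-0.62) and smooth muscle markers in 7 of 8 (-0.26). With the distal minus proximal score as a covariate 2 of the 4 calls, NDUFB11 and COX7A1, kept P under 0.05. SDHB and SDHD lost it, with log2 fold changes of 0.30 and 0.61. The members' median was -0.02 against -0.05 over all names.

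Tissue forms of a subunit differed widely in level. COX7A2 was 8.61 (W_Res2) to 41.2 (PW_Con3) times as high as COX7A1, with a median of 21.4, and the W_Res2 and W_Res3 libraries had the lowest ratios, 8.61 and 8.91. COX6A1, the broadly expressed form of subunit 6a, averaged 359 FPKM and was 52.3 to 160 times as high as its muscle form COX6A2, which stayed between 2.86 and 6.03 FPKM in all libraries. The c subunit genes ATP5G1 and ATP5G3, which encode the same mature protein, were at like levels, with ratios of 0.708 to 1.35 and means of 182 and 173 FPKM. None of these 6 genes but COX7A2, COX7A1 and ATP5G1 had an unadjusted P under 0.05 in the weaning or diet comparisons given above.

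Other lists of mitochondrial genes were counted beside the members. In the tricarboxylic acid cycle, which feeds NADH to complex I and holds complex II, 11 of 15 tested genes had a negative log2 fold change with weaning in control litters (3 lower and 1 higher at P under 0.05, against 7.21% and 8.11% of all names, median -0.21), and 12 of 15 a positive one in resveratrol litters (3 higher, against 3.4% of all names, median 0.17). The difference was positive for 14 of 15. PDHA1, a subunit of pyruvate dehydrogenase, stood at 27.2, 59.3 and 36.2 FPKM in W_Con and at 16.6, 17.5 and 16.9 in PW_Con (log2 fold change -1.15, adjusted p = 0.0898), and FH, fumarase, had a log2 fold change of -0.53 (adjusted p = 0.207). In resveratrol litters MDH2, malate dehydrogenase, had the smallest P (0.90, adjusted p = 0.186). Of 25 mitochondrial ribosomal proteins 3 were higher and 0 lower in control litters, against 8.11% and 7.21% of all names (median 0.06). In resveratrol litters 0 were called in either direction, against 3.4% of all names higher and 14.2% lower (median 0.11). MRPL4 stood at 0.74 (adjusted p = 0.115) and MRPL10 at 0.65 (adjusted p = 0.171) in control litters. MRPL14 stood at 0.69 (adjusted p = 0.29) and MRPL1 at -0.57 (adjusted p = 0.351) in resveratrol litters.

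Among 9 regulators of mitochondrial number, 8 were positive in control litters, with POLG, the mitochondrial DNA polymerase, at 0.56 (adjusted p = 0.173) and PPRC1 at 0.43 (adjusted p = 0.49), and 6 in resveratrol litters, with GABPB1 at -0.44 (adjusted p = 0.328) and TWNK at -0.28 (adjusted p = 0.529). The 19 assembly factors outside the naming rule had medians of 0.01 and 0.05, with TTC19 at 0.55 (adjusted p = 0.218) and LYRM2 at -0.51 (adjusted p = 0.279) in control litters and LYRM2 at -1.02 (adjusted p = 0.121) and TMEM70 at 0.53 (adjusted p = 0.254) in resveratrol litters. Of 7 other enzymes that feed the ubiquinone pool, ETFDH was lower in control litters (-0.64, adjusted p = 0.141), GPD2 stood at -0.59 (adjusted p = 0.561), and SQOR (0.65, adjusted p = 0.412) and ETFA (0.39, adjusted p = 0.468) led in resveratrol litters. USMG5, a small ATP synthase subunit outside the rule, stood at 5.40, 4.81 and 2.96 FPKM in W_Con, 1.08, 0.270 and 1.36 in PW_Con, 0.627, 0.303 and 1.52 in W_Res and 1.97, 3.68 and 1.52 in PW_Res. It was lower after weaning in control litters (-1.52, adjusted p = 0.095) and higher in resveratrol litters (0.91, adjusted p = 0.219). Cytochrome c, CYCS, was higher in resveratrol litters (0.89, adjusted p = 0.223), and C14orf2 stood at -0.25 in control litters (adjusted p = 0.705).

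Not all subunits are named by symbol in the table. Under Ensembl identifiers it lists 9 further genes whose symbols match the rule and which were not counted as members: NDUFA2, NDUFA6, NDUFA9, NDUFB1, NDUFB8, UQCR11, UQCRC2, COX8A and SDHAF2. COX8A, the broadly expressed form of subunit 8, stood at 102, 137 and 99.7 FPKM in W_Con and at 224, 264 and 365 in PW_Con, a log2 fold change of 1.31 (adjusted p = 0.0898) and opposite in sign to 9 of the 10 complex IV members. In resveratrol litters it stood at 191, 181 and 135 FPKM before and 259.8, 182 and 362 after weaning (0.62, adjusted p = 0.282). NDUFB1 was lower in control litters (-0.63, adjusted p = 0.317) and NDUFA6 (0.84, adjusted p = 0.175) and SDHAF2 (0.91, adjusted p = 0.281) higher in resveratrol litters. Of the subunits encoded in mitochondrial DNA, 9 had a named row, and genes that every cell uses were listed at 0: COX2 in 11 of 12 libraries, COX3 in 10, CYTB and ND5 in 8. No fold change is given for them, and the nuclear members cannot be set against them here.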

How the data were processed

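Poly(A) RNA of jejunum from 12 piglets was sequenced in pairs on an Illumina HiSeq instrument by the authors. The deposited table holds FPKM values per locus, made by the authors with StringTie. The labels name HISAT2 2.0, StringTie 1.3.0 and Bowtie 0.12.2 and the build Sscrofa10.2, whereas the methods of the study name TopHat, StringTie and Ballgown. Loci that carry no gene name, 17650 in number (42.8%), were not used. No reads per gene could be recovered from these coverage-based values. The study's supplement lists mapped reads for the control libraries, while the depth of the libraries from resveratrol litters is unknown.

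FPKM of loci with one gene name were summed. Names with a mean of at least 0.5 over the 12 libraries were tested by limma 3.58.1 (R 4.3.3, moderated test with trend, 2-sided) on log2(FPKM + 1). The fit had 4 group means and Benjamini-Hochberg adjustment over 12886 names. The study used StringTie and Ballgown to estimate expression and reports the 6 control libraries. The submitters call the 3 libraries of a group biological replicates. Members, marker lists and pathway lists were chosen with earlier results of these data known. Named members were the most abundant of each complex, the 2 smallest P per complex in each weaning comparison, the 3 smallest in the other comparisons, those past P under 0.05 and a log2 fold change beyond 1, isoform pairs, complex II, and NDUFA1; for other lists, the 2 smallest P in each weaning comparison, and other genes were named after their values were seen. Alternatives changed the pseudocount, filter, loci, scaling, variance model, samples, block and covariates. The procedure was tested on simulated data. Sequences and genome coordinates are not used here, and some genes that these rules name are not reported here.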

Additional observations from a re-analysis of the deposited data

Results flagged for a closer look

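In 9 members the change with weaning differed between control and resveratrol litters at an unadjusted P under 0.05 of the interaction term in limma, and none of them passed adjustment over all names. For 8 of them the difference, as log2 fold change in resveratrol minus that in control litters, was 1.16 for NDUFA1, 1.16 for ATP5A1, 1.09 for NDUFAF5, 0.98 for COX7A2, 0.88 for NDUFAF4, 0.82 for ATP5L, 0.77 for SDHB and -0.62 for NDUFA12. All 9 lost P under 0.05 when W_Res2 and W_Res3 were left out together, which leaves 1 library in W_Res, with values of 0.74 for NDUFA1, 0.98 for NDUFAF5 and -0.68 for NDUFA12. They lost it too with the smooth muscle score as a covariate, with values of 1.02 for NDUFA1, 1.24 for ATP5A1, 0.91 for COX7A2 and -0.59 for NDUFA12. With 3 libraries in each group, single libraries were not tested as outliers.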

How the results depend on the processing

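The 40 calls of single members kept their direction under all but 1 of 869 pairings with an alternative, and P under 0.05 in 615. The exception was weaning in resveratrol litters for NDUFAB1, at -0.092 with W_Res2 and W_Res3 left out. The calls were chosen on the same libraries and some genes recur between comparisons, so that these pairings are not independent evidence of direction. The number of members at P under 0.05 and their median moved further. Median-of-ratios rescaling gave 16 for weaning in resveratrol litters, 10 for resveratrol at 21 days and 7 at 28 days. In the same order, 2107, 2343 and 1020 of all names were at P under 0.05. Fitting only the groups compared gave 12 for weaning in control litters, 5 in resveratrol litters, where 4 of the 7 calls were lost, 6 at 21 days and 7 at 28 days. All names at P under 0.05 numbered 2247, 1725, 1735 and 1317 in the same order. A Ballgown-style model with a library-size covariate gave 1 for weaning in resveratrol litters (median -0.016), 1 for the difference between litters, 3 for the mean of both, 1 at 21 days and 0 at 28 days. With it all names at P under 0.05 fell from 2274 to 475 for the first and from 1770 to 624 for the second. They numbered 1311 for the mean, 1424 at 21 days and 644 at 28 days. Of the alternatives chosen after seeing the data, the smooth muscle covariate gave 2 for weaning in resveratrol litters, 0 for the difference, 4 for the mean and 1 at 21 days, which was higher and none of the 6 lower calls, with all names at 805, 697, 2005 and 1088. The distal minus proximal covariate gave 4 for the difference and 2 at 28 days, with all names at 1643 and 750. Leaving out W_Res2 and W_Res3 leaves 1 library in W_Res that is assumed to vary like the other groups. The members' median was then -0.12 against -0.19 over all names for weaning in resveratrol litters and -0.0019 against -0.18 for the difference. It was -0.20 against -0.11 for the mean of both and 0.20 against 0.12 at 21 days. The cause of these shifts was not tested. Whether libraries of one replicate number came from one litter is not given in the labels. Correlations of their deviations from group means ran from -0.257 to 0.109, with 2 of 12 over 0.1. With 3 libraries a group, these cannot show whether litters were shared. With the replicate number as a block the counts were 17 for weaning in control litters, 1 in resveratrol litters and 4 for the difference. All names at P under 0.05 then numbered 2015, 1320 and 1490. Leaving out 1 library at a time gave 4 to 10 members and a median of -0.32 to -0.10 for weaning in control litters, 2 to 24 and 0.11 to 0.43 in resveratrol litters, 3 to 24 and 0.24 to 0.56 for the difference, 4 to 15 and -0.10 to 0.06 for the mean, 4 to 21 and -0.46 to -0.07 at 21 days, and 1 to 6 and 0.11 to 0.34 at 28 days. The fit with 1 library in W_Res is left aside for adjusted p, since its spread there is assumed. In the other alternatives, members with an adjusted p under 0.05 in limma appeared only with rescaling and without W_Res1. Rescaling gave 2 of 196 names for the mean of both. Without W_Res1 there were 1 of 110 names in resveratrol litters and 2 of 173 for the mean. With 3 libraries a group and no read counts, the smallest change that could be resolved was not tested.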
